A study of Mus musculus with 6 samples.

Results

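Genes of the contractile apparatus and cytoskeleton that hepatic stellate cells express when activated were measured in liver RNA: the actins *Acta2* and *Actg1*, the actin-binding genes *Tagln*, *Tagln2*, *Cnn2* and *Tpm1*, the myosin light chain gene *Myl9*, the actin-severing gene *Gsn* and the intermediate filament genes *Des* and *Vim*. They were chosen by gene symbol, 10 of the 40481 genes in the deposited table of all pools, and all 10 passed the filter on low counts. Stellate cells are the vitamin A-storing pericytes of the liver sinusoids. On activation they become myofibroblasts, which deposit collagen and gain smooth muscle proteins, with alpha smooth muscle actin, the product of *Acta2*, as the usual marker and desmin, the product of *Des*, as the marker of rodent stellate cells. Myosin pulls on actin filaments, and tropomyosins and calponins lie along the filaments and regulate that pull. Transgelins cross-link actin filaments, gelsolin cuts and caps them, and desmin and vimentin form the intermediate filaments. None of these genes is made by stellate cells alone, since vascular smooth muscle, portal fibroblasts, macrophages, endothelium and striated muscle each express several of them.

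The *Mttp-IKO* livers came from *Mttp* f/f Villin Cre ERT2 mice on a C57BL/6 background, aged 12 to 16 weeks, in which Cre is active in the intestinal epithelium after tamoxifen and removes *Mttp*, the microsomal triglyceride transfer protein gene needed to assemble chylomicrons. *Mttp-IKO* mice received tamoxifen at 50 µg/g per day for 5 days, and littermates given vehicle were the controls. The methods describe the controls as mice of the same line and the labels as wild type, so whether they also carried the floxed alleles and the transgene is not settled by the sources. Tamoxifen was given to the *Mttp-IKO* mice alone, so the drug, the deletion and any such difference cannot be told apart here. All were male and were fed a methionine- and choline-deficient (MCD) diet, which causes steatohepatitis, for 3 weeks beginning 3 weeks after the injections, and livers of both groups were taken after a fast of 4 h, as the labels state. RNA was pooled from 3 to 4 mice per pool, with 3 pools in each group, and the pool is the replicate, so the spread is that between pools and not between mice. The comparison asks which of these genes differed in the liver when chylomicron assembly was blocked before the diet. The deletion is intestinal, so liver RNA gives no check of it.

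The pools held 25271585 to 36238734 reads on genes. Levels are given as CPM, reads relative to the pool's total with TMM scaling, or, where genes are compared with each other, as RPKM, which also divides by the exon length in kilobases. Genotypes were compared by edgeR's quasi-likelihood test over 17287 genes with Benjamini-Hochberg adjustment and a threshold of 0.05, and log2 fold changes are *Mttp-IKO* against control. Both groups held pools that stood apart. Striated muscle genes, a list of 20, summed to 2699 CPM in control pool 2, 372 CPM in control pool 1 and 54.5 CPM in control pool 3, against 31.6 to 71.8 CPM in the *Mttp-IKO* pools, and 7 of the 20 had no read in control pool 3. Skeletal muscle actin, *Acta1*, was at 368 CPM in control pool 2, 40.5 CPM in control pool 1 and 0.218 to 0.419 CPM in the other 4 pools. *Mttp-IKO* pool 3 was low in short genes: relative to the other *Mttp-IKO* pools, the median protein-coding gene with up to 1000 exon bases was at -1.12 on the log2 scale, and the median gene of over 4000 exon bases was at 0.18. Results are therefore also given without control pool 2, and without both of these pools, the latter chosen after the data were seen.

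Sequences upstream of these genes are shown because several of them are known targets of serum response factor (SRF), the transcription factor that binds the CArG box of smooth muscle and cytoskeletal genes, and because most of them moved in the same direction. The 200 bases before the RefSeq start site are given for 4 genes (GRCm38.p6, 5′ to 3′ along the gene): *Acta2* (chr19:34255374-34255573, minus strand), the myofibroblast marker; *Myl9* (chr2:156775264-156775463, plus strand) and *Cnn2* (chr10:79988400-79988599, plus strand), which hold an exact CArG box; and *Actg1* (chr11:120348496-120348695, minus strand), which holds an exact box and had the smallest log2 fold change of the 10. Capitals mark 10-base windows that match the CArG box or depart from it by 1 letter.
Acta2: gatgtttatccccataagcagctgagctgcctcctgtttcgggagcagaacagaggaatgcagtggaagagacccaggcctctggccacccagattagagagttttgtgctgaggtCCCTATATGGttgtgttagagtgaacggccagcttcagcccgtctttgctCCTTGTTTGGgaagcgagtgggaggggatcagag
Myl9: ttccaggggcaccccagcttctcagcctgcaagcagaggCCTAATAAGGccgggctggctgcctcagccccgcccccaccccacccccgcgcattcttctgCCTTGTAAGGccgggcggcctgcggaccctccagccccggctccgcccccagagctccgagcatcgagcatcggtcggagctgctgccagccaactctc
Cnn2: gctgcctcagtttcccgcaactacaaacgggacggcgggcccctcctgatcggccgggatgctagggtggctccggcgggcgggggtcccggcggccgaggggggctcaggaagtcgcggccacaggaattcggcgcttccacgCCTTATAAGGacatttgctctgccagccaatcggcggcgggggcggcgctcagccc
Actg1: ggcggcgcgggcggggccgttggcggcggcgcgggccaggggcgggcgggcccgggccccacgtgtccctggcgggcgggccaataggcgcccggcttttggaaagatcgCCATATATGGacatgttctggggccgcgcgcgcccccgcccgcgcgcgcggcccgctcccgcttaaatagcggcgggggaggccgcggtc

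The exact box of *Myl9* was CCTAATAAGG, 161 to 152 bases upstream, that of *Cnn2* was CCTTATAAGG, 56 to 47 bases upstream, and that of *Actg1* was CCATATATGG, 90 to 81 bases upstream. *Acta2* held no exact box in this window but a pair of windows that depart by 1 letter, CCCTATATGG at 84 to 75 and CCTTGTTTGG at 34 to 25 bases upstream. These positions count from the RefSeq start, which differs from the 5′ end in the deposited coordinates for each of these genes. For *Acta2* the deposited end, chr19:34255336, lies downstream of the RefSeq start, so its windows are farther from that end. For *Myl9*, *Cnn2* and *Actg1* the deposited end lies upstream of the RefSeq start. The box was searched in the full RefSeq promoter windows, from 250 bases before to 50 after the start. It reads the same on both strands, and it can overlap other A and T rich elements. Of the 9 member genes with a window in the table, 3 held an exact match, against 488 of 27025 genes (1.81%) in the whole table. With 1 departing letter allowed the counts were 6 of 9, *Gsn* and *Tpm1* added, against 23.8% of all genes. The *Tagln* promoter was not analysed here. *Vim*, *Des* and *Tagln2* held neither in their windows. A match in a window is a description of its letters and not of a bound site.

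Of the 10 genes, 5 fell in *Mttp-IKO* liver by edgeR's test and 0 rose, and 0 were higher at an unadjusted p under 0.05 or by DESeq2 or limma-voom. Those that fell were *Gsn*, *Acta2*, *Vim*, *Tagln* and *Myl9*, with log2 fold changes of -2.21 to -1.63. Among all genes tested 3.09% were called lower and 0.92% higher by the same rule. All 10 log2 fold changes were negative, and their median was -1.64, against 0.01 over all genes tested. An unadjusted p under 0.05 was reached by 9 of the 10, and by 3978 of all 17287 genes tested in either direction (edgeR). In 7 of 10 every control pool lay above every *Mttp-IKO* pool, as in 16.5% of all genes tested (14.6% the other way round), and in the other 3, *Tagln2*, *Tpm1* and *Actg1*, the genotypes overlapped. In a bulk sample, fewer cells of a type and less RNA per cell cannot be told apart.

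**Figure D1:**
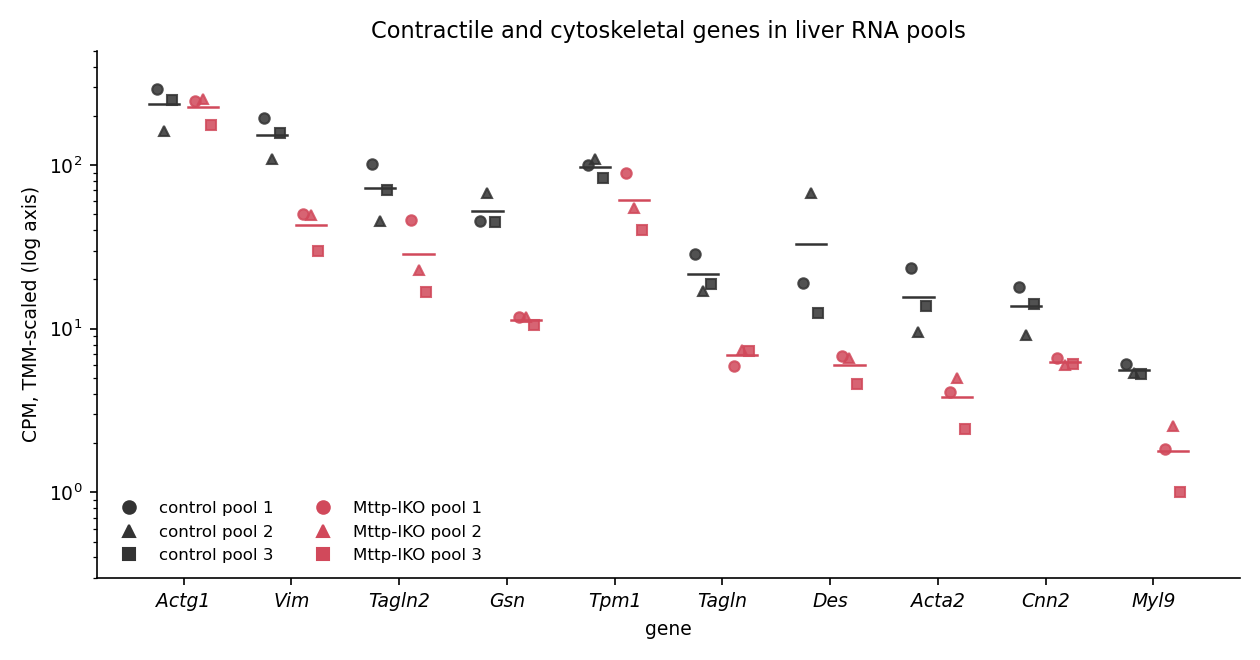
TMM-scaled CPM (log axis) of the 10 genes in each pool, control pools in dark grey and *Mttp-IKO* pools in red, with the pool number as the symbol and a line at each group mean. The genotypes are apart in 7 genes and overlap in *Tagln2*, *Tpm1* and *Actg1*, and *Des* in control pool 2 stands at 67.99 CPM, far above the other controls.

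The actins differed from each other. *Acta2* (ENSMUSG00000035783, chr19:34241090-34255336, minus strand, 1781 exon bases), alpha smooth muscle actin, was at 23.6, 9.61 and 13.7 CPM in control pools 1 to 3 and at 4.12, 4.97 and 2.43 CPM in *Mttp-IKO* pools 1 to 3. The groups did not overlap, control pool 1 was the highest and *Mttp-IKO* pool 3 the lowest. The means were 15.6 ± 7.18 and 3.84 ± 1.29 CPM (SD, n = 3 pools each), a log2 fold change of -2.02 with a standard error of 0.384 (adjusted p = 0.0340, edgeR). The exact permutation test of the pool values, two-sided, gave p = 0.1, the smallest that 3 pools against 3 allow.

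*Actg1* (ENSMUSG00000062825, chr11:120345690-120348542, minus strand, 2658 exon bases), cytoplasmic gamma actin, was at 294, 162 and 250.7 CPM in the controls and 246, 254 and 176 CPM in *Mttp-IKO*. The lowest and the highest of the 6 pools were both controls. The log2 fold change was -0.07 with a standard error of 0.257 (adjusted p = 0.906, edgeR), it changed sign when control pool 1 (0.11) or *Mttp-IKO* pool 3 (0.09) was left out, and means of 235.5 ± 67.0 and 225 ± 42.9 CPM (SD, n = 3 each) differed by less than the spread between pools. Of the 1903 windows of 50 bases in its longest coding transcript, 56.7% also occur in transcripts of other genes, 51.1% in *Gm12715*, and since reads with several alignments were left out its level is uncertain. *Acta2* shares 0.353% of its windows and none with *Acta1*. Cytoplasmic beta actin, *Actb*, was the most abundant actin and had a log2 fold change of -0.52 (adjusted p = 0.254, edgeR).

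Taken as a share of *Acta2*, *Actg1* and *Actb* together in RPKM, which does not depend on how the libraries were scaled, *Acta2* was 1.10%, 0.603% and 0.710% in the controls and 0.247%, 0.366% and 0.2365% in *Mttp-IKO*. Each control share lay above each *Mttp-IKO* share, with means of 0.806% ± 0.264 and 0.283% ± 0.0717 (SD, n = 3 each). The exact permutation test gave p = 0.1, again the lowest it can give. The difference was -0.522 percentage points and ranged from -0.624 to -0.373 as each pool was left out.

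For *Acta2* the study also designed primers for quantitative PCR, forward ccagagcaagagagggatcct and reverse tgtcgtcccagttggtgatg. As a pair they match transcripts of *Acta2* alone among 141767 GENCODE M21 transcripts, with a product of 71 bases at chr19:34251738-34251808 in exon 3 of 9, while the reverse primer by itself also lies in *Acta1*. They are shown because *Acta1* was the actin that differed most between the control pools.

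The transgelins and the calponin bind actin filaments. *Tagln* (ENSMUSG00000032085, chr9:45929628-45936058, minus strand, 1586 exon bases), SM22 alpha, an early marker of smooth muscle and myofibroblasts, was at 28.6, 16.95 and 18.8 CPM in the controls and 5.89, 7.365 and 7.33 CPM in *Mttp-IKO*. The 3 *Mttp-IKO* pools lay close together and far below the controls, at 6.86 ± 0.841 against 21.4 ± 6.27 CPM (SD, n = 3 each), with a log2 fold change of -1.64 and a standard error of 0.2375 (adjusted p = 0.0184, edgeR). Of its exon bases 65 of 1586 are shared with *Pcsk7* on the opposite strand, and whether the counting used strand is not given in the sources used here.

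*Tagln2* (ENSMUSG00000026547, chr1:172500047-172507380, plus strand), the transgelin of many cell types outside muscle, was at 101, 45.5 and 70.8 CPM in the controls and 45.98, 22.9 and 16.8 CPM in *Mttp-IKO*. *Mttp-IKO* pool 1 lay level with control pool 2, and every other *Mttp-IKO* pool lay below the controls. The log2 fold change of -1.34 with a standard error of 0.412 did not pass (adjusted p = 0.108, edgeR). The share of *Tagln* in *Tagln* and *Tagln2* was 27.1%, 32.8% and 25.8% in the controls and 14.4%, 29.7% and 36.5% in *Mttp-IKO*, which spanned the controls on both sides (exact permutation test, two-sided, p = 0.9).

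*Cnn2* (ENSMUSG00000004665, chr10:79988584-79996062, plus strand), the calponin of non-muscle cells and fibroblasts, was at 17.9, 9.11 and 14.2 CPM in the controls and 6.60, 6.03 and 6.12 CPM in *Mttp-IKO*. The groups did not overlap, and the *Mttp-IKO* pools were nearly level, with means of 13.7 ± 4.415 and 6.25 ± 0.308 CPM (SD, n = 3 each). Its log2 fold change of -1.14 with a standard error of 0.2545 just missed the threshold (adjusted p = 0.0504, edgeR). Without control pool 2 it was -1.38 and passed (adjusted p = 0.0160, edgeR; 0.00286 to 0.1797 over all alternatives). The smooth muscle calponin *Cnn1* was at 0.530 to 1.31 CPM in the controls and 0.240 to 0.419 CPM in *Mttp-IKO* (log2 fold change -1.66, adjusted p = 0.0960, edgeR), while *Cnn3* had a log2 fold change of 0.04 (adjusted p = 0.927, edgeR).

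*Myl9* (ENSMUSG00000067818, chr2:156775420-156781658, plus strand, 1162 exon bases), the regulatory light chain of smooth muscle and non-muscle myosin, was the least abundant of the 10 per length, at 4.81 RPKM in the controls. It was at 6.12, 5.37 and 5.27 CPM in the controls and 1.84, 2.535 and 1.01 CPM in *Mttp-IKO*, from 169 to 247 reads and 24 to 74 reads. The controls varied little among themselves, at 5.59 ± 0.462 CPM against 1.79 ± 0.766 CPM (SD, n = 3 each), and the log2 fold change was -1.63 with a standard error of 0.334 (adjusted p = 0.0413, edgeR). *Myl9* lost its call without control pool 2 (log2 fold change -1.68, adjusted p = 0.0621, edgeR; 0.000148 to 0.158 over all alternatives). The light chains of many cell types, *Myl6* and *Myl12a*, had log2 fold changes of -0.76 and -0.35 and did not pass.

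*Tpm1* (ENSMUSG00000032366, chr9:67022590-67049406, minus strand, 6485 exon bases), which encodes muscle and non-muscle forms of tropomyosin, was at 100.2, 109 and 83.1 CPM in the controls and 88.9, 55.0 and 40.1 CPM in *Mttp-IKO*. *Mttp-IKO* pool 1 lay above control pool 3, so the groups overlapped. The log2 fold change was -0.67 with a standard error of 0.283 (adjusted p = 0.209, edgeR). The share of *Tpm1* among *Tpm1*, *Tpm2*, *Tpm3* and *Tpm4* was 23.9% ± 1.45 in the controls and 26.9% ± 6.93 in *Mttp-IKO* (SD, n = 3 each; exact permutation test, two-sided, p = 0.5). *Tpm2*, the tropomyosin of smooth and slow skeletal muscle, made up 37.7% of the tropomyosin RPKM in control pool 2, 6.71% and 3.96% in the other control pools and 0.668% to 1.70% in *Mttp-IKO*.

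*Gsn* (ENSMUSG00000026879, chr2:35279663-35307892, plus strand, 2977 exon bases), gelsolin, was at 45.4, 67.99 and 44.6 CPM in the controls and 11.7, 11.85 and 10.6 CPM in *Mttp-IKO*. The genotypes were far apart and the *Mttp-IKO* pools almost level, with means of 52.7 ± 13.3 and 11.4 ± 0.712 CPM (SD, n = 3 each). The log2 fold change was -2.21 with a standard error of 0.204 (adjusted p = 0.0109, edgeR), the smallest adjusted p of the 10 genes. Control pool 2, the pool with the most striated muscle RNA, was the highest, at 1.51 times the mean of the other controls, and without it the log2 fold change was -2.00 (adjusted p = 0.00622, edgeR; 1.16e-16 to 0.0914 over all alternatives). *Capg*, a gelsolin relative that caps filaments without cutting them and is abundant in macrophages, fell as well, from 41.6, 20.1 and 40.6 CPM to 6.63, 5.515 and 5.15 CPM (log2 fold change -2.56, adjusted p = 0.0141, edgeR).

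The intermediate filament genes had unequal control pools. *Vim* (ENSMUSG00000026728, chr2:13573927-13582826, plus strand, 2335 exon bases), vimentin, the filament of mesenchymal cells and leukocytes, was at 193.5, 109 and 157 CPM in the controls and 50.1, 49.3 and 29.8 CPM in *Mttp-IKO*. The groups were apart, at 153 ± 42.2 and 43.0 ± 11.5 CPM (SD, n = 3 each), with a log2 fold change of -1.83 and a standard error of 0.280 (adjusted p = 0.0200, edgeR).

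*Des* (ENSMUSG00000026208, chr1:75360329-75368579, plus strand, 3754 exon bases), desmin, was at 19.05, 67.99 and 12.45 CPM in the controls and 6.76, 6.61 and 4.61 CPM in *Mttp-IKO*. Every control lay above every *Mttp-IKO* pool, but control pool 2 was 4.32 times the mean of the other controls. With all pools the log2 fold change of -2.46 had a standard error of 0.597 and did not pass (adjusted p = 0.0622, edgeR). Without control pool 2 it was -1.41 and passed (adjusted p = 0.0378, edgeR; 0.000155 to 0.186 over all alternatives). Desmin is also the main intermediate filament of striated muscle, whose genes were highest in control pool 2. Control pool 1, kept in the fit without control pool 2, had a striated muscle sum of 372 CPM, against 54.5 CPM in control pool 3. Of these sums *Neb* alone held 47.9 CPM in control pool 1 and 45.2 CPM in control pool 3. The rest of the list, summed, therefore differed by a larger factor. In the *Mttp-IKO* pools *Neb* was at 15.2 to 53.2 CPM. The part of striated muscle in the level of *Des* was not tested. In control pool 3, where the striated muscle sum lay within the *Mttp-IKO* range, *Des* was 2.08 times the *Mttp-IKO* mean.

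The share of *Des* in *Des* and *Vim* together depended on control pool 2. It was 5.77%, 27.9% and 4.70% in the controls and 7.75%, 7.705% and 8.78% in *Mttp-IKO*. With all pools the difference was -4.71 percentage points (exact permutation test, two-sided, p = 1). Without control pool 2 it turned to 2.84 percentage points, and both remaining controls lay below every *Mttp-IKO* pool, with p = 0.1 by the exact permutation test, the smallest that 2 pools against 3 allow. The study's *Des* primers, ggaaatccaactaagagaagaagca and ctagagtggctgcatccacatc, give a product of 74 bases in exons 2 to 3 of 9 (chr1:75362167-75362334) and match *Des* alone; they are shown because the study took *Des*, like *Acta2*, as a marker of fibrosis.

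**Figure D2:**
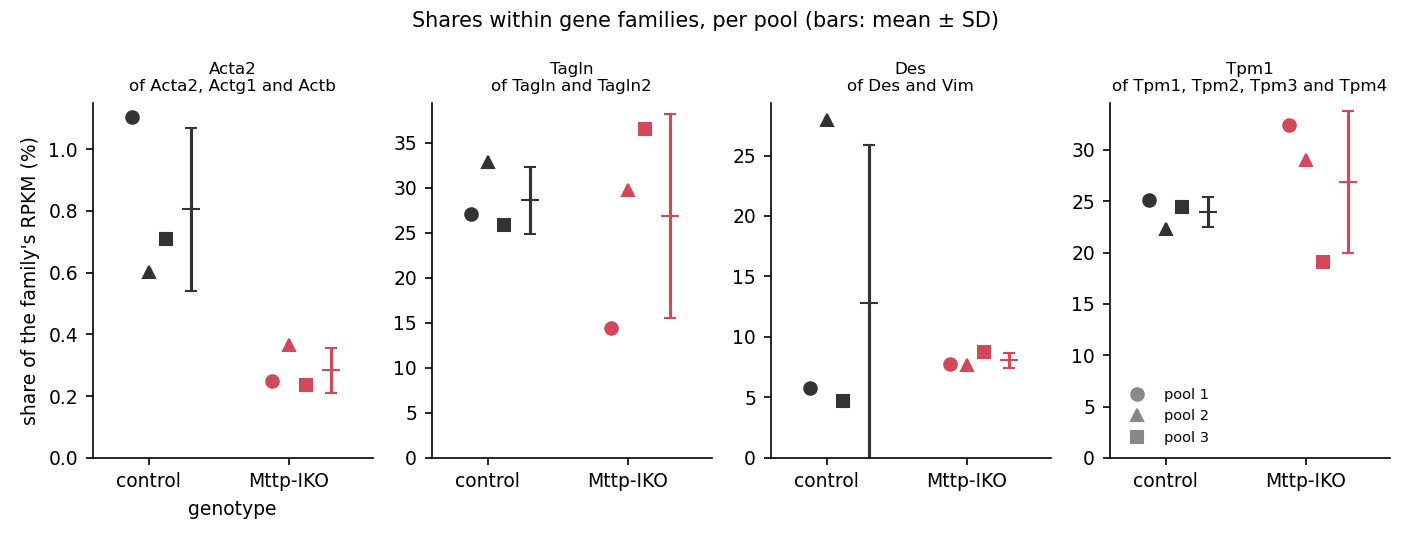
Share of *Acta2*, *Tagln*, *Des* and *Tpm1* in the RPKM of their gene families (percent, axes from 0) in each pool, with the mean and SD of 3 pools per genotype beside them; the lower end of the *Des* control bar is cut off at 0. The *Acta2* share is 0.603% to 1.10% in the controls and 0.2365% to 0.366% in *Mttp-IKO*, and the *Des* share of control pool 2 is 27.9%.

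Per length, *Actg1* was the most abundant of the 10 in the controls at 88.6 ± 25.2 RPKM (SD, n = 3), followed by *Vim* at 65.6 ± 18.1 and *Tagln2* at 34.8 ± 13.4 RPKM. *Gsn* at 17.7 ± 4.46, *Tpm1* at 15.0 ± 2.02 and *Tagln* at 13.5 ± 3.95 RPKM came next and lay within each other's spread, as did *Des* at 8.83 ± 8.08, *Acta2* at 8.775 ± 4.03, *Cnn2* at 5.58 ± 1.80 and *Myl9* at 4.81 ± 0.398 RPKM. In *Mttp-IKO* *Actg1* stayed first at 84.7 ± 16.2 RPKM, and *Vim* at 18.4 ± 4.92 RPKM lay within the spread of *Tagln2* at 13.7 ± 7.40 RPKM. *Gsn* was at 3.82 ± 0.239 RPKM, below *Tpm1* at 9.46 ± 3.86 RPKM and close to *Tagln* at 4.33 ± 0.530 RPKM. The 3 lowest were *Acta2* at 2.16 ± 0.725, *Des* at 1.597 ± 0.320 and *Myl9* at 1.54 ± 0.659 RPKM.

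The highest and lowest pools recurred across these genes. Pool 1 was the highest control in 7 of the 10 genes and pool 2 in the other 3, *Des*, *Gsn* and *Tpm1*, and pool 2 was the lowest control in 6. *Mttp-IKO* pool 3 was the lowest of its group in 8 of 10. Control pool 3, with little striated muscle RNA, lay above every *Mttp-IKO* pool in 8 of the 10 genes, all but *Tpm1* and *Actg1*. Its level over the *Mttp-IKO* mean was 3.92 for *Gsn*, 3.65 for *Vim*, 3.57 for *Acta2*, 2.94 for *Myl9* and 2.74 for *Tagln*. For *Des*, *Cnn2* and *Tagln2* it was 2.08 to 2.48. How many of all genes tested had control pool 3 above every *Mttp-IKO* pool was not counted.

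Leaving out control pool 2 gave 6 of 10 called lower, *Des* and *Cnn2* gained and *Myl9* lost, against 4.34% of all genes tested. Leaving out control pool 2 and *Mttp-IKO* pool 3 together gave 8 of 10, all but *Tpm1* and *Actg1*, against 8.78%. A single gene, *Gsn*, was called without control pool 1, control pool 3 or *Mttp-IKO* pool 1, when 0.085%, 0.0951% and 0.178% of all genes were called lower. Without *Mttp-IKO* pool 2 edgeR called 0 of the 10 and 0 of 17873 genes, of which 3221 had an unadjusted p under 0.05. Without *Mttp-IKO* pool 3, 4 were called, *Acta2* lost (adjusted p = 0.0509, edgeR), against 3.15% of all genes. By the DESeq2 test on all 6 pools 8 of 10 were called, against 7.75% of all genes. The log2 fold changes of the 9 genes other than *Actg1* stayed negative with each pool left out.

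**Figure D3:**
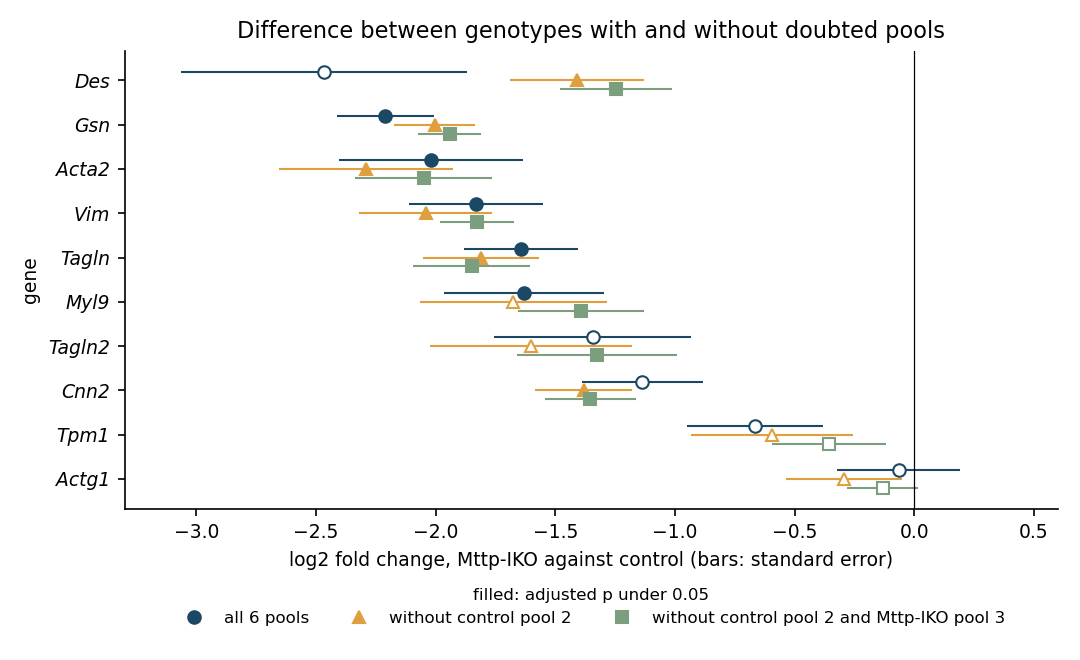
Log2 fold change of each gene, *Mttp-IKO* against control, with its standard error, from all 6 pools (circles), without control pool 2 (triangles) and without control pool 2 and *Mttp-IKO* pool 3 (squares); filled symbols passed an adjusted p of 0.05. *Des* moves from -2.46 to -1.41 without control pool 2, and *Actg1* stays near 0.

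Relatives of these genes and other contractile and actin regulators had a median log2 fold change of -0.51. Of 47 such genes 46 were tested by edgeR, 8 fell (17.4%) and 0 rose, with 0 higher at an unadjusted p under 0.05 or by DESeq2 or limma-voom; 3.09% of all genes tested fell and 0.92% rose. Without control pool 1, *Mttp-IKO* pool 1 or *Mttp-IKO* pool 2, 0 of them were called, without control pool 3 only *Acta1*, and without *Mttp-IKO* pool 3, 5. The 2 of 18 family relatives that fell were *Capg* and *Tpm2*, and *Tpm2* was at 12.0, 82.5 and 6.05 CPM in the controls and 2.09, 1.23 and 0.629 CPM in *Mttp-IKO* (log2 fold change -4.64, adjusted p = 0.0493, edgeR). *Tpm2* followed the striated muscle list between control pools, and without control pool 2 its log2 fold change was -2.775 (adjusted p = 0.0310, edgeR), while other alternatives took it past the threshold, to 0.179 without *Mttp-IKO* pool 2.

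Among the 28 regulators 6 fell. *Myh11*, the smooth muscle myosin heavy chain, was at 16.8, 12.4 and 14.4 CPM in the controls and 4.70, 6.06 and 3.35 CPM in *Mttp-IKO* (log2 fold change -1.62, adjusted p = 0.0200, edgeR). *Smtn*, smoothelin of contractile smooth muscle, had a log2 fold change of -0.94 (adjusted p = 0.0288), *Flna*, the filament cross-linker filamin A, -1.33 (adjusted p = 0.0376), and *Fhl2*, a LIM protein, -3.21 (adjusted p = 0.0188), from 1.33 to 3.10 CPM in the controls to 0.168 to 0.343 CPM in *Mttp-IKO*, all by edgeR. *Tmsb4x*, which binds actin monomers, and *Lcp1*, the filament bundler of leukocytes, had log2 fold changes of -1.70 (adjusted p = 0.0427) and -1.14 (adjusted p = 0.0390, edgeR). The abundant general genes *Myh9* (-0.60), *Pfn1* (-0.50), *Tln1* (-0.42), *Cald1* (-0.25) and *Actn4* (0.07) did not pass.

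Transcripts of the 4 factors that act on the CArG box did not pass, 1 of them, *Myocd*, at an unadjusted p under 0.05 (edgeR), and 0 passed by DESeq2 or limma-voom. *Srf* was at 29.9, 30.9 and 26.4 CPM in the controls and 36.4, 33.2 and 37.75 CPM in *Mttp-IKO*, a log2 fold change of 0.30 (adjusted p = 0.250, edgeR), with every *Mttp-IKO* pool above the controls. Its cofactor genes *Mkl1* and *Mkl2* had log2 fold changes of 0.05 and 0.27, and *Myocd*, the smooth muscle cofactor, was under 1 CPM in all pools (log2 fold change -1.23, adjusted p = 0.173, edgeR). Of 11 other intermediate filament genes 1 fell, *Nes*, where 3.09% of all genes tested were called lower. *Nes* (nestin) went from 9.96, 6.20 and 7.985 CPM to 2.77, 1.68 and 1.59 CPM (log2 fold change -1.99, adjusted p = 0.0192, edgeR). The hepatocyte keratins *Krt8* and *Krt18* had log2 fold changes of -1.27 and -0.86 (adjusted p = 0.0994 and 0.128, edgeR).

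Lists of marker genes show which other transcripts, grouped by cell type, moved with these genes. Over all genes tested edgeR called 3.09% lower and 0.92% higher. Of 15 stellate cell identity genes 6 fell and 0 rose (median log2 fold change -0.61): *Lrat*, which esterifies retinol for storage (-1.71), *Ngfr* (-2.775), *Pdgfrb* (-1.20), *Colec11* (-1.65), *Cygb* (-1.16) and *Pth1r* (-1.26). Their summed level was 838 to 1063 CPM in the controls and 628 to 780 CPM in *Mttp-IKO*, and reads of the list were present in every pool. Matrix genes of activated stellate cells fell in 10 of 12 (median -1.93), among them *Col3a1* (-3.93), *Col1a1* (-3.72) and *Sparc* (-1.72), with sums of 787 to 1782 and 326 to 366 CPM.

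Of 10 vascular smooth muscle genes 3 fell, *Myh11*, *Smtn* and *Notch3*, and 1 rose, *Pln* (log2 fold change 1.403, adjusted p = 0.0340, edgeR), with sums of 66.1 to 78.4 CPM in the controls and 41.6 to 47.6 CPM in *Mttp-IKO*. Of 13 macrophage genes 4 fell, *Lyz2* (log2 fold change -1.80), *Trem2* (-2.62), *Cx3cr1* (-2.78) and *Ccr2* (-2.20), and *Timd4* of resident Kupffer cells rose (1.165), with sums of 772 to 1593 and 453.5 to 541 CPM. Without control pool 2, and also by DESeq2, 9 of the 13 were called lower, and limma-voom called 0 higher. The shares of all genes called lower were 3.09% by edgeR, 4.34% without control pool 2 and 7.75% by DESeq2. Of 12 portal fibroblast and mesothelium genes 2 fell, *Fbln2* (-1.30) and *Mfap4* (-2.54), with sums of 54.3 to 71.8 and 21.6 to 42.1 CPM; 1 was called lower without control pool 2 and 5 by DESeq2, which also called 6 smooth muscle genes lower. No gene was called in the lists of endothelium (9 genes tested, sums of 463 to 512 and 458 to 507.5 CPM), cholangiocytes (8), hepatocytes (7) or heart (4) by edgeR. Hepatocyte genes summed to 62590 to 97910 CPM in the controls and 112500 to 169800 CPM in *Mttp-IKO*, without overlap. The sums were 97.4 to 220 and 73.7 to 128 CPM for cholangiocytes, and 3.02 to 10.1 and 2.05 to 2.58 CPM for heart. At an unadjusted p under 0.05 the endothelium, cholangiocyte, hepatocyte and heart lists had 0, 3, 4 and 1 genes (edgeR). The 4 hepatocyte genes were higher and the others lower, and DESeq2 called 0, 1, 3 and 0. Over all genes tested, 3978 of 17287 had an unadjusted p under 0.05 in either direction. Of the 20 striated muscle genes 8 were tested, 0 were called, 6 were lower at an unadjusted p under 0.05 and 5 by DESeq2. The parts of smooth muscle, macrophages and portal fibroblasts in the change of the contractile genes were not tested.

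**Figure D4:**
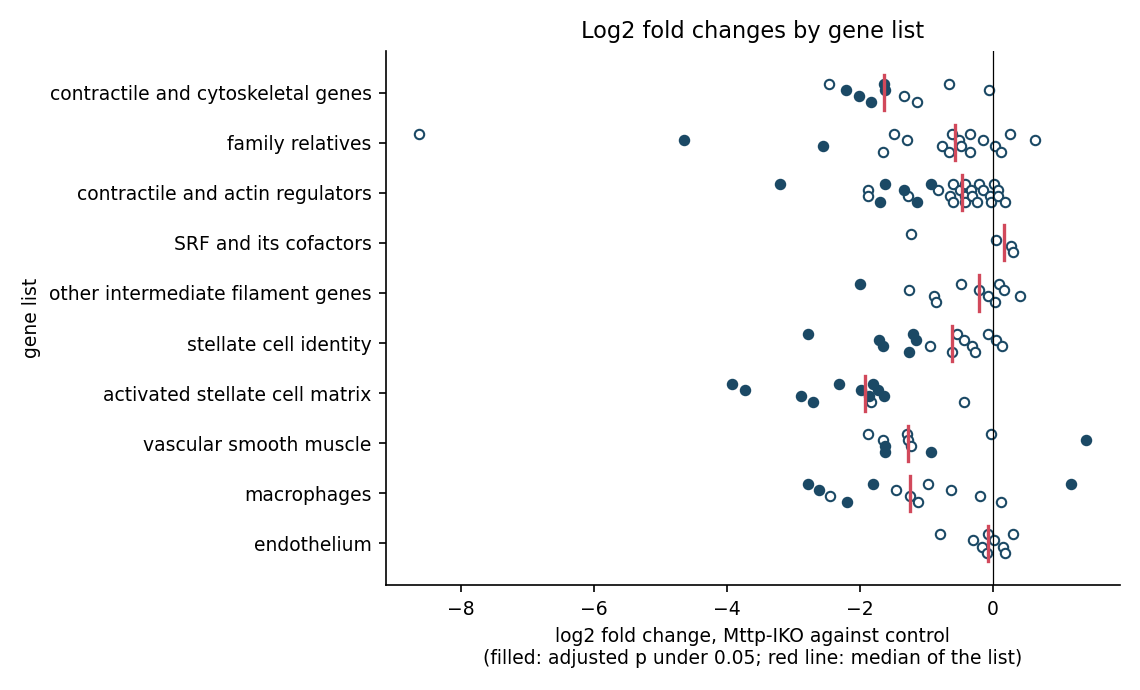
Log2 fold changes, *Mttp-IKO* against control, of the tested genes of 10 lists, with filled points past an adjusted p of 0.05 and a red line at each list's median. The median is -1.64 for the 10 contractile and cytoskeletal genes, -0.57 for their family relatives, -1.93 for activated stellate cell matrix and -0.07 for endothelium.

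The genes whose pattern over the 6 pools was most like that of *Acta2* came from more than a single cell type. Likeness was measured as the root mean square difference of log2 CPM, each gene centered on its own mean, over 12399 genes (median 1.13). The 10 closest were *H2-Aa* (0.146), *Mgp* (0.1465), *Thbs2* (0.190), *H2-Eb1* (0.194), *Vim* (0.197), *Emp3*, *H2-Ab1*, *Loxl1*, *Col6a2* and *Cd180* (0.2225), among them 3 class II histocompatibility genes of antigen-presenting cells and the matrix genes *Loxl1*, *Col6a2* and *Thbs2*. *H2-Aa* was at 99.96, 39.8 and 66.8 CPM in the controls and 17.2, 18.4 and 12.2 CPM in *Mttp-IKO*, the same order of control pools as *Acta2*. Among the other members *Vim* ranked 5, *Myl9* 76, *Tagln* 137 and *Tagln2* 210, while *Des* ranked 4087, after *Actg1* at 3443.

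Genes most like *Actg1*, at distances of 0.0838 to 0.138 where the median gene was at 0.424, were *Adgb*, *Rassf2*, *Gria3*, *Rp2*, *Il18bp*, *Prcp*, *Arl10*, *A130014A01Rik* and *Dcbld1*, with adjusted p of 0.631 to 0.940 (edgeR). None of the other 9 members came close to it, the nearest being *Tpm1* at rank 9368. These distances rest on 6 pools that share the libraries' depth and muscle content, and carry no test.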

How the data were processed

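Total liver RNA, depleted of ribosomal RNA, was sequenced in 3 control and 3 *Mttp-IKO* pools. The authors aligned reads to the Ensembl release 76 GRCm38 assembly with STAR 2.5.1a and deposited, for each pool, featureCounts 1.4.6-p5 read counts of 41388 genes from uniquely aligned, unambiguous reads, without normalization. The deposited CPM and RPKM values follow from these counts and were not tested. In the table of all pools, 276 repeated lines were dropped. Read length and strand setting are not given in the sources used here. Reads with several alignments were left out, so genes with near-identical copies read low.

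Samples were grouped by the genotype in their labels. The labels do not tie pools of the same number to each other. Replicates are pools, so p-values measure the spread between pools. For a gene without reads, the 3 reads that a count of 0 allows come to 0.0828 to 0.119 CPM before TMM scaling, a limit for counting error alone.

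Genes were kept by filterByExpr (minimum count 10, minimum total 15), leaving 17287, scaled by TMM (factors 0.899 to 1.11) and tested with edgeR 4.0.16 (glmQLFit, glmQLFTest; R 4.3.3), adjusted by Benjamini-Hochberg over all of them. The methods name no tool for differential expression. Single values and family shares were compared by exact permutation tests. The member genes and the 14 other lists were chosen with earlier results of these data known, so their counts are descriptions. All members are named. From other lists the rule allowed genes past the threshold or among a list's 5 most abundant, not all of which are named; *Cnn1* was added after its values were seen, and *Pcsk7* and *Gm12715* for shared sequence. Also named are the 10 genes most like *Acta2* and *Actg1* among genes with a mean log2 CPM of at least 1, except a gene that is not reported here. Alternatives were DESeq2 1.42.0, limma-voom 3.58.1, other scalings and filters, a replicate block, robust dispersion, a test of protein-coding genes alone, offsets for a loess trend with gene length in each pool (span 0.3), raw-count shares and leaving out pools. Scripts were tested on simulated data. Promoters came from RefSeq (GRCm38.p6) for 9 of 10 members, and GENCODE M21 transcripts served to place primers and 50-base windows. Plots were made in matplotlib 3.10.9.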

Additional observations from a re-analysis of the deposited data

How the results depend on the processing

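Of the 10 member genes 5 were called lower with all 6 pools, 8 with the DESeq2 test, when 7.75% of all genes were called lower, and 8 without control pool 2 and *Mttp-IKO* pool 3 together, an alternative chosen after the data were seen. Of the 46 relatives and regulators tested, 8, 15 and 13 were called lower in the same order. Over all genes tested these settings called 3.09%, 7.75% and 8.78% lower. Leaving out 1 pool gave 0 to 6 members, 0 to 8 relatives and regulators, and 7 to 9 members without overlap. Leaving out a pool cannot lower the count without overlap, and the share of all genes was not counted for it. Control pools 1 and 3 and *Mttp-IKO* pools 1 and 2 are those whose omission left at most 1 of either list called. Those 4 omissions left 0% to 0.178% of all genes called lower, against 4.34% without control pool 2 and 3.15% without *Mttp-IKO* pool 3; the cause was not tested. The *Acta2* share difference ranged from -0.624 to -0.373 percentage points, that of *Tpm1* from 0.150 to 6.82, that of *Tagln* from -6.53 to 4.51, positive without control pool 2 (0.407) and without *Mttp-IKO* pool 1 (4.51), and that of *Des* from -8.76 to 2.84, positive without control pool 2 (2.84). The log2 fold change of *Actg1* ranged from -0.29 to 0.11 as pools were left out, positive without control pool 1 (0.11) and *Mttp-IKO* pool 3 (0.09); the cause was not tested. With limma-voom *Acta2* was not called (adjusted p = 0.0565). Other scalings, filters and the removal of the length trend left both counts within 1.5 times; total count scaling moved the median of all genes to -0.17. With the replicate number as a block, 7 members were called, *Des* and *Tagln2* added, and 9 relatives and regulators. In that fit 452 of 17287 genes were called lower. Deviations of pools with the same number correlated at 0.139, 0.112 and 0.00698, each the highest for its control pool. The labels do not say whether the numbers pair the pools. Low depth limits *Myl9*, with 24 reads in its lowest pool, and still lower counts limit *Cnn1*, *Fhl2* and *Myocd*.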
